A study of Mus musculus with 8 samples.

Results

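The mucosal pentraxins Mptx1 and Mptx2 are the 2 genes described here, out of 55414 genes in a table of RNA-seq counts from mouse Paneth cells (PCs). Both were found in the table by their Ensembl identifiers, ENSMUSG00000026531 for Mptx1 and ENSMUSG00000079180 for Mptx2. They were chosen by name, not by a threshold on measured values. The study sorted PCs by flow cytometry from the small intestine of C57BL/6J mice and sequenced stranded, poly(A)-selected libraries. In the control group 4 mice drank Milli-Q water, and in the zinc group 4 mice drank water with 25 mM ZnSO4, in both cases for 7 days. All 8 mice then received TNF, and PCs were taken after 3 h, so that the comparison is of zinc with water in mice that were all exposed to TNF. No library came from a mouse without TNF, and each library holds the PCs of a single mouse.

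Pentraxins are secreted recognition proteins that assemble into flat rings and bind ligands, such as phosphocholine on microbes and on damaged cells, in a calcium-dependent way. The best known members, C-reactive protein (Crp) and serum amyloid P component (Apcs), are made by the liver and can recruit complement to what they bind. The mucosal pentraxins are expressed in the gut epithelium, and Mptx2 is used as a marker of mouse PCs, the crypt cells that secrete lysozyme and α-defensins.

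The libraries held between 10623658 and 15101627 counts, and 10707 genes had enough counts to be tested. Markers of PCs were abundant in every library, with Lyz1 (lysozyme 1) at 133076 to 213550 CPM (a count divided by the library size in megareads, with the size scaled by TMM factors that correct for differences in composition). None of the 18 immune and stromal markers reached the level needed for testing, 8 of them had no count in any library, and their summed level was at most 1.43 CPM. In these bulk samples fewer cells of a type and less RNA per cell cannot be told apart. Libraries stood apart from the others in 3 ways. Milli-Q water 3 and Milli-Q water 4 read less of long transcripts, with rank correlations between transcript length and the deviation from the other libraries of -0.23 and -0.24, against 0.0178 to 0.18 in the other 6. Zinc 3 had a summed level of 186 CPM over 24 genes of the TNF and NF-kB response, against 1935 to 2254 CPM elsewhere. Zinc 4 had the zinc-binding metallothioneins Mt1 and Mt2 at 45 and 4.03 CPM, inside the water ranges of 36 to 68.2 and 4 to 22.9 CPM, so that these genes did not set it apart from water. Zinc 3, at 29.5 and 8.35 CPM for Mt1 and Mt2, was not above the water libraries in these genes either. Other genes of zinc handling did set zinc 3 apart from water. The metallothionein gene Mt3, at 2.03 CPM, lay above the water maximum of 1.11 CPM. The zinc exporter Slc30a1 lay above its water maximum of 0.893 CPM. The importer Slc39a10, at 30.5 CPM, lay below its water range of 38.3 to 55.5 CPM.

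Mptx1 and Mptx2 lie on chromosome 1 of the mouse genome (GRCm39, the build of the deposited table), 1053 kb apart and on opposite strands. Mptx1 is annotated at chr1:174158084-174160439 on the plus strand and Mptx2 at chr1:173101949-173105344 on the minus strand. Each has 2 exons, with a first exon of 119 bases in both and a second exon of 680 bases in Mptx1 and 675 bases in Mptx2. The mRNAs are 799 and 794 bases long. Each codes for 219 residues, and the intron interrupts the coding sequence at the same place, after 64 coding bases.

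Over the aligned mRNAs, 734 of 799 positions (91.9%) were identical, with 60 substitutions and 5 gap positions. The coding sequences differed at 53 of 657 positions and the translated proteins at 33 of 219 residues, which left the proteins 84.9% identical. The differences were not spread evenly. The first 120 coding bases, which hold the start codon and the signal peptide, differed at 1 position. They are shown because no stretch of 120 coding bases was more alike. They run across the intron from chr1:174158139-174159815 (plus strand) in Mptx1 and chr1:173102568-173105289 (minus strand) in Mptx2, and a capital marks the base that differs.
Mptx1, coding bases 1 to 120: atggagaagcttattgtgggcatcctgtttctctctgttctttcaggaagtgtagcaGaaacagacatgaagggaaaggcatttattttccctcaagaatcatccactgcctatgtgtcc
Mptx2, coding bases 1 to 120: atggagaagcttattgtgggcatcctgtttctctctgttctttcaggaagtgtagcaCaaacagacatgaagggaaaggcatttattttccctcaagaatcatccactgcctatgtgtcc

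The last 120 coding bases were the least alike, with 104 of 120 positions identical (86.7%). They are shown because they hold 16 of the 53 coding bases by which the genes differ. They lie in exon 2 at chr1:174160233-174160352 (plus strand) for Mptx1 and chr1:173102031-173102150 (minus strand) for Mptx2, and capitals mark the 16 differing bases.
Mptx1, coding bases 538 to 657: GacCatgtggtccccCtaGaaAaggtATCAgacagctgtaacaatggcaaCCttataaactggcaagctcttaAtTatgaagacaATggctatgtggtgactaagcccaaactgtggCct
Mptx2, coding bases 538 to 657: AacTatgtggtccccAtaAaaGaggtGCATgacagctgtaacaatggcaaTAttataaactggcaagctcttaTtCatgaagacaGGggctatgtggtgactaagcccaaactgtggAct

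The longest run shared without a difference by the mRNAs was 112 bases. Of all stretches of 75 bases in the Mptx1 mRNA, 73 of 725 (10.1%) also occurred in Mptx2, and none occurred in the transcripts of any other annotated gene. For stretches of 50 bases the shared part was 17.9% of Mptx1, and for stretches of 30 bases it was 25.7%. The sources used here do not say how reads that match both genes were counted, so the Mptx1 counts in particular are uncertain, and the part of them that came from Mptx2 transcripts was not tested.

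The 250 bases before the annotated transcript start were also alike, with 212 of 257 aligned positions (82.5%) identical, 31 substitutions and 14 gap positions. They are shown because the levels of the genes, given next, lay far apart. The windows are chr1:174157834-174158083 (plus strand) for Mptx1 and chr1:173105345-173105594 (minus strand) for Mptx2, both written towards the start, with capitals at substituted or unmatched bases.
Mptx1, bases -250 to -1: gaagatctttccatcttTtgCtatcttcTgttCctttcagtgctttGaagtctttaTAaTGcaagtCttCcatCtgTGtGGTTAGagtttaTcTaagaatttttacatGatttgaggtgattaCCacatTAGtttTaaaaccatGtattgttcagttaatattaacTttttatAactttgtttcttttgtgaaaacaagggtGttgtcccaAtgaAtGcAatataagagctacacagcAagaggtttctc
Mptx2, bases -250 to -1: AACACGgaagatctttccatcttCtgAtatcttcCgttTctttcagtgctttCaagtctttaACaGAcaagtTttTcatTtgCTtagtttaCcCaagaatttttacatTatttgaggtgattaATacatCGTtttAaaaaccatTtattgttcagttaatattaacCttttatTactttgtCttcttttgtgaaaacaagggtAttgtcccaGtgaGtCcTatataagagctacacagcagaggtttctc

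Both windows held the letters TATAA close to the start, at 29 bases before it in Mptx1 and 28 bases in Mptx2, searched on both strands. Counted strand by strand, the whole window held 5 matches in Mptx1 and 1 match in Mptx2. The letters TTATAA, found in the Mptx1 window, match on both strands. Such overlapping matches were counted separately, so the places were fewer than 5 in Mptx1. Of 21770 windows of the same length before protein-coding genes, 23.3% held these letters at any position. The share that held them as close to the start was not counted. The core of the metal response element (TGCACNC or TGCGCNC), the site of the zinc-sensing factor Mtf1, occurred in 19.7% of the windows and in neither gene. The pattern GGGNNTTCC, searched for NF-kB, occurred in 4.9% of the windows and in neither gene. Other forms of the NF-kB site were not searched.

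To place the genes among the transcripts of PCs, their counts were compared in each library. Mptx2 was among the most abundant transcripts of these cells, and Mptx1 was far lower. Mptx2 had 73235, 94506, 125602 and 59505 counts in Milli-Q water 1 to 4 and 55102, 48715, 60037 and 55446 counts in zinc 1 to 4. Its rank by count within a library was between 9 and 15. Mptx1 had 112, 104, 162 and 62 counts in Milli-Q water 1 to 4 and 52, 75, 62 and 63 counts in zinc 1 to 4. Every library thus held counts assigned to both genes, and those of Mptx1 never came near those of Mptx2.

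As a share of all counts, Mptx2 made up 0.572% ± 0.253 (SD, n = 8). The lowest share was 0.399% in zinc 2 (95% Wilson interval 0.396 to 0.403) and the highest was 1.17% in Milli-Q water 3 (1.16 to 1.18). Mptx1 made up 0.000693% ± 0.000355 (SD, n = 8). The intervals cover counting error only. The Defa genes, which encode α-defensins, take a large part of the counts of PCs, and outside them the share of Mptx2 was 0.941% ± 0.489 and that of Mptx1 0.00114% ± 0.000671 (SD, n = 8).

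Per kilobase of exon, the mean level of Mptx2 was 7587 CPM, which was rank 11 of the 10707 tested genes. Next above it were Spink4 (8121 CPM per kilobase), a secreted protease inhibitor of goblet cells and PCs, and Defa29 (16037 CPM per kilobase), an α-defensin gene. Next below it were Ang4 (5726 CPM per kilobase), an antimicrobial ribonuclease of PCs, and Defa26 (5114 CPM per kilobase). Spink4, Ang4 and Defa26 differed from Mptx2 by less than the SD of Mptx2 between libraries, and Defa29 by more. Mptx1, at 9.14 CPM per kilobase, had rank 1561, between Ehhadh (9.15) and Smagp (9.14) above and Chtop (9.12) and Nrbp1 (9.11) below, none of which can be told from it at this spread.

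**Figure D1:**
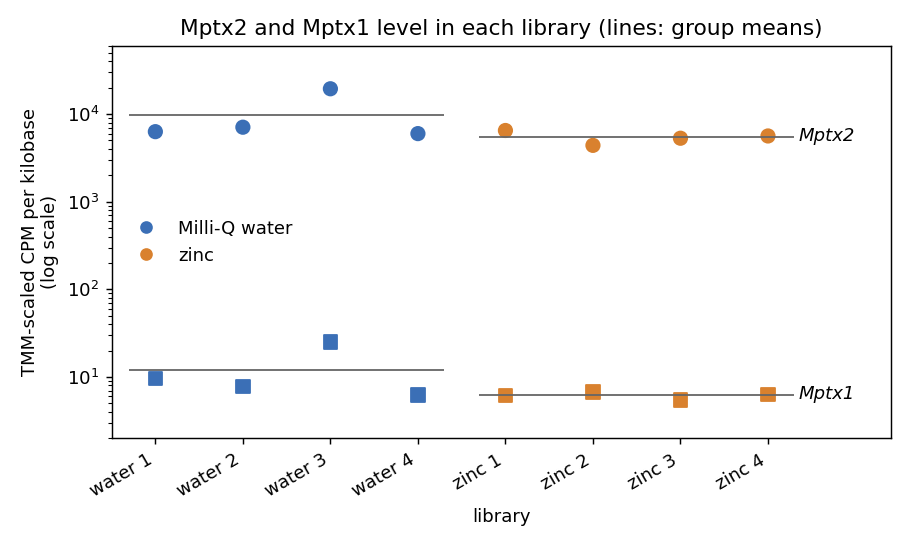
Level of Mptx2 (circles) and Mptx1 (squares) in each of the 8 libraries, as TMM-scaled CPM per kilobase on a log scale, with the mean of each group as a line. Mptx2 lay between 4400 and 19469 and Mptx1 between 5.45 and 25, and both were highest in Milli-Q water 3.

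The ratio of the genes spanned 1.63-fold over the 8 libraries, against 4.42-fold for the level of Mptx2 and 4.58-fold for that of Mptx1. Without Milli-Q water 3 the levels spanned 1.61-fold and 1.76-fold, about as much as the ratio at 1.63-fold. For every 1000 Mptx2 counts there were 1.53, 1.1, 1.29 and 1.04 Mptx1 counts in Milli-Q water 1 to 4 and 0.944, 1.54, 1.03 and 1.14 in zinc 1 to 4. Over all libraries the ratio was 1.21 per 1000, and Mptx1 made up 0.121% of the counts of the pair (95% Wilson interval 0.112 to 0.13). The intervals of 2 libraries overlapped in 27 of 28 pairs of libraries. Per kilobase, Mptx2 exceeded Mptx1 by 830-fold ± 139 in water and 895-fold ± 177 in zinc (SD, n = 4 each), with a range of 654 to 1066 over the 8 libraries.

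On the log2 scale the ratio of Mptx1 to Mptx2 counts was -9.66 ± 0.25 in water and -9.76 ± 0.31 in zinc (SD, n = 4 each). The difference of -0.10 was smaller than either SD (two-sided exact permutation test over 70 assignments, p = 0.657, and 0.657 after adjustment over 3 ratios). Without Milli-Q water 1 the difference was 0.01, so the ratio gave no stable direction. Reads from the stretches common to both mRNAs enter this ratio, and their part in it was not tested.

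**Figure D2:**
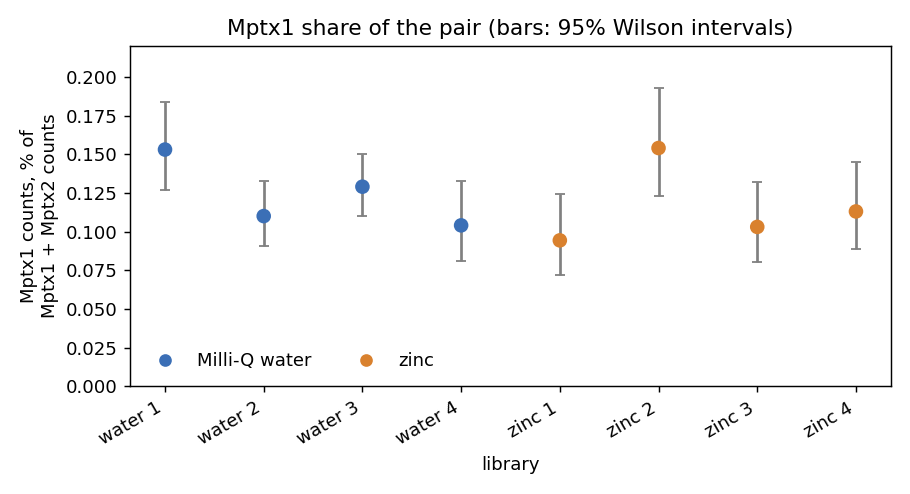
Mptx1 counts as a percentage of the counts of Mptx1 and Mptx2 together in each library, with 95% Wilson intervals that cover counting error only. The shares lay between 0.0943% and 0.154%, and water and zinc libraries overlapped.

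To ask whether zinc in the drinking water changed the genes, the 4 zinc libraries were compared with the 4 water libraries. Both genes had lower means with zinc, but neither passed the test, and Milli-Q water 3 set most of the difference. The levels of Mptx2 were 5008, 5628, 15458 and 4758 CPM in Milli-Q water 1 to 4 and 5163, 3494, 4213 and 4471 CPM in zinc 1 to 4. Zinc 1 lay above Milli-Q water 1 and 4, so that the groups overlapped, with 2 of 4 water libraries above every zinc library. The means were 7713 ± 5176 CPM in water and 4335 ± 690 CPM in zinc (SD, n = 4 each). Zinc thus lay at 0.562-fold of water, or -0.83 on the log2 scale (SE 0.372), with an adjusted p of 0.485 in edgeR's quasi-likelihood test (unadjusted p = 0.0484). The coefficient of variation was 67.1% in water and 15.9% in zinc.

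Mptx1 was measured at 7.66, 6.19, 19.9 and 4.96 CPM in Milli-Q water 1 to 4 and at 4.87, 5.38, 4.35 and 5.08 CPM in zinc 1 to 4. Milli-Q water 1, 2 and 3 lay above every zinc library, whereas Milli-Q water 4 lay among them. The means were 9.69 ± 6.92 CPM in water and 4.92 ± 0.433 CPM in zinc (SD, n = 4 each). The log2 fold change was -0.95 (SE 0.395), or 0.517-fold, with an adjusted p of 0.485 in the edgeR test (unadjusted p = 0.0358). The coefficient of variation was 71.5% in water and 8.8% in zinc.

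Across all 10707 tested genes, edgeR called 0 genes (0%) at an adjusted p under 0.05, with 1092 genes at an unadjusted p under 0.05. DESeq2 called 4 genes of 18720, neither pentraxin among them. The unadjusted p of both pentraxins lay under 0.05 with lower values in zinc, as did that of 3.78% of the tested genes, and 7.27% and 9.83% of all tested genes had p-values as small as those of Mptx1 and Mptx2. Groups that did not overlap, with zinc lower, were found for 3.12% of the tested genes, and for neither Mptx1 nor Mptx2. The median log2 fold change of all tested genes was 0.00621, and 1.15% and 1.82% of them had log2 fold changes as low as those of Mptx1 and Mptx2.

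Without Milli-Q water 3, the levels in water were 5131 ± 448 CPM for Mptx2 and 6.27 ± 1.35 CPM for Mptx1 (SD, n = 3), against 4335 ± 690 and 4.92 ± 0.433 CPM in zinc (SD, n = 4). The log2 fold changes became -0.25 for Mptx2 and -0.35 for Mptx1. Without both Milli-Q water 3 and 4, whose values fell with transcript length, they were -0.30 and -0.50. Without zinc 4 the log2 fold changes were -0.85 for Mptx2 and -0.97 for Mptx1, and without zinc 3 they were -0.81 and -0.87. All 18 alternatives kept zinc below water for both genes, and none passed the test, with adjusted p-values from 0.291 to 0.855 for Mptx1 and from 0.318 to 0.855 for Mptx2 in the edgeR, limma and DESeq2 fits.

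**Figure D3:**
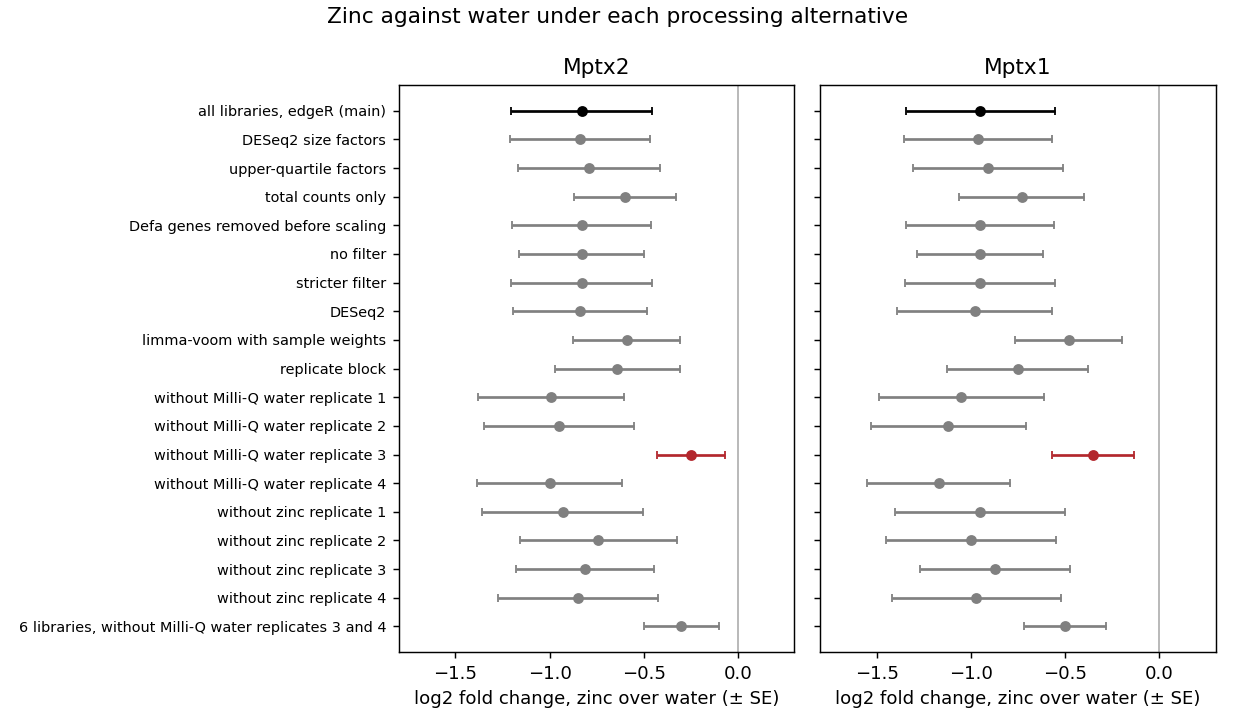
Log2 fold change of zinc over water, with its SE, for Mptx2 (left) and Mptx1 (right) with all libraries (black) and under each alternative (grey), the fit without Milli-Q water 3 in red. All values are below 0, and they are closest to it, at -0.25 and -0.35, without Milli-Q water 3.

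The level in Milli-Q water 3 was described against the other water libraries, since it carried so much of the comparison. Mptx2 was 3.01-fold and Mptx1 3.18-fold higher there than the mean of Milli-Q water 1, 2 and 4. Levels that stood as far out in this library were found for 0.327% (Mptx2) and 0.243% (Mptx1) of the tested genes, while 18.6% of tested genes had their highest level in it. Lyz1 was 1.39-fold higher. The TMM factor of this library was the smallest, with an effective size of 8125270 for 10733407 counts, and without scaling its Mptx2 share of 1.17% compared with 0.424% to 0.626% in the other water libraries.

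Among 25 other secreted products of PCs, 13 (52%) had their highest level in Milli-Q water 3, with a median log2 difference of 0.33 from the other water libraries, and none stood as far above them as Mptx1 or Mptx2. The nearest were Mmp7, the protease that activates α-defensins in mice, at 1.91-fold, Defa17 at 1.9-fold and Defa30 at 1.87-fold. Short transcripts as a class were higher in this library. Of 64 protein-coding genes with 600 to 1000 bases of exon, 29 (45.3%) had their highest level there, the median log2 difference was 0.44, and 3 stood at least as far above the other water libraries as Mptx2. Both gene sets were compared after the values in this library had been seen. Milli-Q water 4 had a rank correlation with transcript length of -0.24, against -0.23 in Milli-Q water 3. Its levels of Mptx2 and Mptx1, 4758 and 4.96 CPM, were the lowest in water. The part of transcript length in the pentraxin levels of Milli-Q water 3 was not tested.

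**Figure D4:**
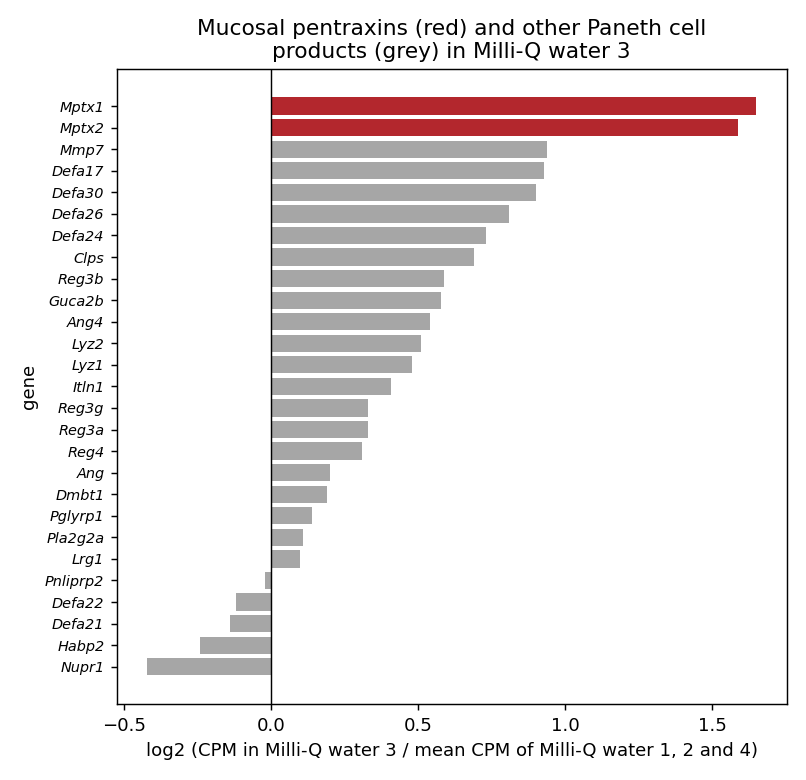
Log2 ratio of the CPM in Milli-Q water 3 to the mean CPM of the other 3 water libraries, for Mptx1 and Mptx2 (red) and 25 other secreted products of PCs (grey). The pentraxins are at 1.65 and 1.59, above every other product shown.

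To set the pentraxins against a product of the same cells, their counts were divided by those of Lyz1. For every 100 Lyz1 counts there were 3.7, 4.01, 7.24 and 2.58 Mptx2 counts in Milli-Q water 1 to 4 and 3.33, 2.63, 2.97 and 2.88 in zinc 1 to 4. Milli-Q water 4 was the lowest of all 8 by this measure, and the other 3 water libraries lay above every zinc library. On the log2 scale the ratio of Mptx2 to Lyz1 was -4.61 ± 0.62 in water and -5.09 ± 0.14 in zinc (SD, n = 4 each), a difference of -0.47 (exact permutation test, p = 0.2, adjusted over 3 ratios 0.343). For Mptx1 to Lyz1 it was -14.28 ± 0.74 and -14.85 ± 0.18, a difference of -0.57 (exact permutation test, p = 0.229, adjusted 0.343). Without Milli-Q water 4 the differences grew to -0.69 and -0.87 with an exact permutation p of 0.0286 for each. This p is the smallest that the test can give and was not adjusted over the 3 ratios. Without Milli-Q water 3 the differences shrank to -0.20 and -0.27.

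Across the 8 libraries the log2 CPM of Mptx1 and Mptx2 had a Pearson r of 0.929 (exact permutation p = 0.0258) and a Spearman rho of 0.524 (exact permutation p = 0.197). The relation rested on Milli-Q water 3. Without it r was 0.367 (exact permutation p = 0.414, n = 7), and without the 2 libraries farthest from the median of Mptx2, Milli-Q water 3 and zinc 2, it was 0.585 (n = 6). The libraries share their scaling factors between the genes, and bases common to both mRNAs also link the counts.

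Genes whose log2 CPM followed that of the pentraxins over the 8 libraries were ranked by Pearson r among tested genes with a mean of at least 10 CPM, as a description. For Mptx2 these were Perp, a membrane protein of cell junctions, at 0.988, the transcription elongation factor Tcea1 at 0.968, the lysosomal protease Ctsh at 0.936, the lysosomal membrane protein Lamp2 at 0.931 and Mmp7 at 0.906. For Mptx1 they were Brcc3, a deubiquitinating enzyme, at 0.949, Perp at 0.932, Mptx2 itself at 0.929, and Akap11, an anchoring protein for protein kinase A, and Ctsh, both at 0.911. Several of these values rested on Milli-Q water 3, and without it the r with Mptx2 was 0.158 for Ctsh and 0.427 for Mmp7. Perp kept an r of 0.933 with Mptx2 over the other 7 libraries, in which it ranged from 57.4 to 64.9 CPM. Without zinc 3, Perp, Tcea1 and Lamp2 again led for Mptx2, followed by Lias (0.946) and Med19 (0.945), and Gch1 (0.965), Tmed5 (0.955), Cop1 (0.951), Setdb1 (0.95) and Brcc3 (0.95) led for Mptx1. Over the 7 libraries other than Milli-Q water 3, with zinc 3 included again, the r with Mptx1 was 0.020 for Cop1 and -0.433 for Setdb1. The genes that led for Mptx1 over these libraries were Trp53bp2 (0.986), Cd177 (0.973), Sec23a (0.949), Tmem87a (0.947) and Fem1c (0.932), none of which stood in its other rankings. For Mptx2 they were Perp (0.933), Pnpla8 (0.906), Nrf1 (0.883), Napg (0.875) and Zfp518a (0.869), of which only Perp stood in its other rankings.

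Of the 9 pentraxin genes listed, only the mucosal pair and Nptx2 had enough counts to be tested. The liver pentraxins Crp and Apcs and the long pentraxins Ptx3, made by myeloid and stromal cells, and Ptx4 had no count in any of the 8 libraries, which allows at most 0.179 to 0.369 CPM per library (3 counts). The neuronal pentraxin genes were low. Nptx2 was at 16.7, 9.11, 8.74 and 6.56 CPM in Milli-Q water 1 to 4 and at 4.78, 5.59, 0.211 and 13.7 CPM in zinc 1 to 4. Its log2 fold change was -0.77 (SE 0.701, adjusted p = 0.648 by edgeR). Nptx1 had 124 counts in all and reached 5.75 CPM in zinc 3, against at most 0.932 CPM elsewhere, and the pentraxin receptor gene Nptxr had 52 counts. The summed level of the 9 genes was 3507 to 15487 CPM per library, of which Mptx2 alone took 3494 to 15458 CPM.

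Partners through which pentraxins act elsewhere were mostly low or undetected, apart from C4bp. Of 19 genes for complement components, Fc receptors, ficolins and collectins, 8 had no count and 5 were tested, 2 with higher and 3 with lower values in zinc and none past the test (median log2 fold change -0.19, all genes 0.00621). By the log2 ratio of group mean CPM, which gave a median of -0.20, the median was 0.06 without Milli-Q water 3. C4bp, the complement inhibitor C4-binding protein, was the most abundant, with 63.4 ± 8.87 CPM in water and 72.1 ± 15.3 CPM in zinc (SD, n = 4 each, log2 fold change 0.19). The complement genes Cfb (log2 fold change -0.20), C4b (-0.19) and C3 (-0.94) were at means of 7.52 CPM or less in each group. The C1q genes C1qa, C1qb and C1qc had 10, 1 and 2 counts over all libraries.

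Among the 25 tested products of PCs, 18 had lower and 7 had higher values in zinc, none past the test, with a median log2 fold change of -0.20 (all genes 0.00621). Without Milli-Q water 3, by the ratio of group means, 15 were lower and 10 higher, with a median of -0.06. The 4 most abundant per kilobase were Defa24 (log2 fold change -0.29), Lyz1 (-0.20), Defa30 (-0.30) and Defa21 (-0.14). Log2 fold changes as low as that of Mptx2 or of Mptx1 were found for 4 of the 25, against 1.82% and 1.15% of all tested genes. They were Reg3a (-1.43), Reg3b (-1.37), Lrg1 (-1.15) and Reg3g (-1.07), which were named after their values had been seen. This count rested in part on zinc 3. Without it, by the ratio of group means, Lrg1 and Reg3g were both at -0.73, above Mptx2 at -0.82 and Mptx1 at -0.91. Reg3b and Reg3g encode antimicrobial C-type lectins that are induced in inflamed gut. Reg3g was at 5503 to 7697 CPM in water and at 2000, 3444, 662 and 6325 CPM in zinc 1 to 4, so that it spread most among the zinc libraries. Mptx2 spread most among the water libraries, but this rested on Milli-Q water 3. Without that library the SD of Mptx2 was 448 CPM in water (n = 3), below the 690 CPM in zinc (n = 4).

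**Figure D5:**
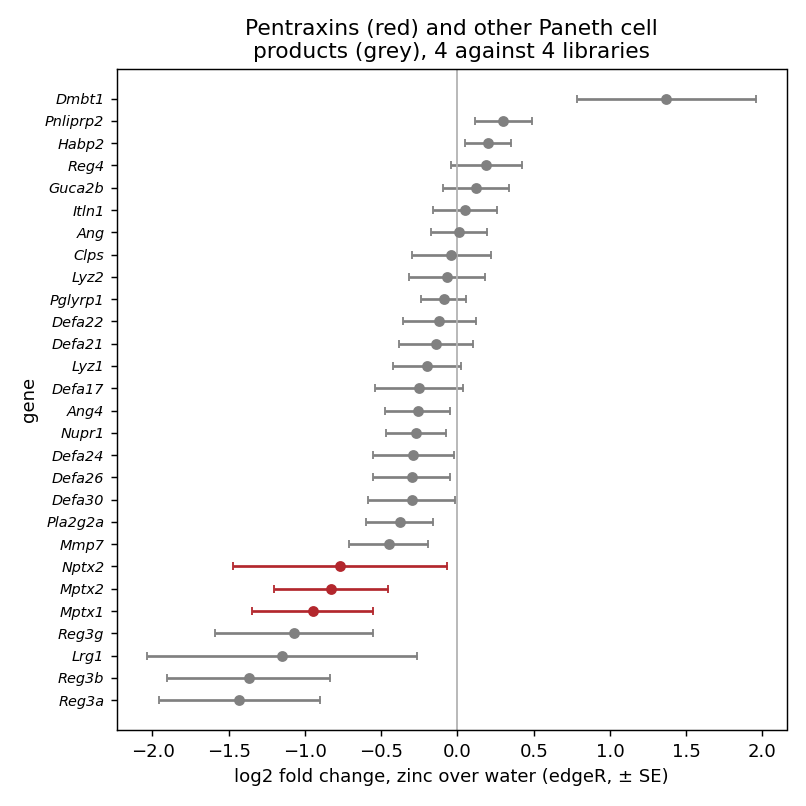
Log2 fold change of zinc over water with its SE (edgeR, 4 against 4 libraries) for the 3 tested pentraxins (red) and 25 other secreted products of PCs (grey). Mptx1 at -0.95 and Mptx2 at -0.83 lie between Reg3g at -1.07 and Nptx2 at -0.77, and no gene shown passed the test.

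Genes of zinc handling and of the TNF and NF-kB response, compared between zinc and water in the same libraries, gave a reference for the pentraxins. The response to TNF itself could not be measured, because all mice received it. Of 6 tested genes of zinc handling, 4 had higher and 2 lower values in zinc, none past the test (median log2 fold change 1.02). The 4 were the metallothionein genes Mt1 (1.20), Mt2 (2.57) and Mt3 (0.85) and the zinc exporter Slc30a1 (2.47), and the 2 were the zinc sensor Mtf1 (-0.14) and the importer Slc39a10 (-0.74), neither of which is a gene that zinc is known to induce. Mt2 was at 6.5, 7.09, 22.9 and 4 CPM in Milli-Q water 1 to 4 and at 172, 49.8, 8.35 and 4.03 CPM in zinc 1 to 4. Zinc 1 and zinc 2 were thus the libraries with the highest Mt2, and among zinc libraries they held the highest and the lowest Mptx2 level. Of 19 tested genes of the TNF and NF-kB response, 18 had lower values in zinc, none past the test (median log2 fold change -0.42), among them Nfkbia (-0.50), Irf1 (-0.87), Nfkb2 (-0.34) and Bcl3 (-0.19). This count rested on zinc 3. Without it, by the ratio of group means, 11 were lower and 8 higher, the median was -0.09, and Nfkb2 and Bcl3 were at 0.03 and 0.20. In zinc 3, where Nfkbia was at 28.6 CPM against at least 434 CPM in every other library, Mptx2 was at 4213 CPM, inside the range of the other zinc libraries, Mptx1 was at 4.35 CPM, the lowest of them, and their ratio was 1.03 Mptx1 counts per 1000 Mptx2 counts.

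The identity and niche genes of PCs went mostly the other way, with 13 of 16 tested genes higher in zinc, none past the test (median log2 fold change 0.29, and 0.13 by the ratio of group means without zinc 3). Of the 4 most abundant per kilobase, the surface marker Cd24a had a log2 fold change of 0.29, and the transcription factors Xbp1 (-0.39), Spdef (-0.45) and Sox9 (-0.21) had negative ones. Markers of other cells were followed beside the pentraxins. All 10 tested enterocyte markers had higher values in zinc (median 0.92), with summed levels of 344 to 397 CPM in water and 360 to 876 CPM in zinc, among them Vil1 (0.18), Anpep (1.12) and Fabp2 (0.26). Without zinc 3, by the ratio of group means, 6 were higher and 4 lower, with a median of 0.24. All 9 tested markers of stem and cycling cells had higher values in zinc (median 1.01), with sums of 444 to 635 CPM in water and 527 to 1188 CPM in zinc, among them Olfm4 (0.96), Slc12a2 (0.28), Rgmb (1.41) and Smoc2 (0.10). Without zinc 3 it was 8 of 9, with a median of 0.86.

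The 12 goblet cell markers were split, with 6 higher and 6 lower (median 0.02), sums of 13375 to 18985 CPM in water and 14667 to 19138 CPM in zinc, and Spink4 (-0.41), Tff3 (-0.13), Agr2 (-0.20) and Ccl6 (0.26) as the most abundant per kilobase. The mucin gene Muc2 (0.84), Fcgbp (1.81), Zg16 (1.91) and Clca1 (1.80), named after their values were seen, had higher means in zinc. The last 3 had unadjusted p-values of 0.0285, 0.018 and 0.0248 by edgeR (adjusted 0.485 for each), with their highest levels in zinc 3. Without zinc 3, by the ratio of group means, Muc2, Fcgbp, Zg16 and Clca1 were at 1.10, 0.65, 1.02 and 1.25. The rest of the list held Klk1 (0.11), also higher, and Retnlb (-1.03, unadjusted p = 0.0541 by edgeR), Ccl9 (-0.40) and Muc13 (-0.08), which were lower. Of 4 tested enteroendocrine and tuft cell markers 3 were higher (median 0.29), with Sct at -0.28, Dclk1 at 1.03, Trpm5 at 0.37 and Avil at 0.21, and sums no higher than 36.6 CPM. Without zinc 3, by the ratio of group means, 1 was higher and 3 lower, with Trpm5 at -0.29 and Avil at -0.70. No marker in these lists passed the test. The part of other cell types in the pentraxin difference was not tested. In Milli-Q water 3, where both pentraxins were highest, the enterocyte sum was 365 CPM and the stem cell sum 635 CPM, while the goblet sum of 18985 CPM was the highest in water. Spink4, which PCs also make, took 9636 CPM of that sum, against 4535 to 7329 CPM in the other water libraries. Tff3 and Agr2, among others, were also highest in water there, at 893 and 977 CPM. Muc2, at 3246 CPM, lay inside the range of the other water libraries, whereas Clca1, at 2.22 CPM, lay below its range.

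Most annotated genes around the pentraxins had no count. Within 200 kb of Mptx1, 13 of 18 annotated genes were in the table, 11 had no count, and the formin gene Fmn2 (169 kb away, log2 fold change 0.21) was at group means of at most 2.27 CPM. Within 200 kb of Mptx2, 13 of 16 were in the table, 10 had no count and 3 were tested, namely Ackr1 (54.1 kb, 1.09), Cadm3 (55.5 kb, 0.98) and the DNA sensor gene Aim2 (73.1 kb, -1.37), at group means of at most 2.81 CPM and none past the test.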

How the data were processed

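The deposited table held raw counts per gene, which the authors made from stranded, poly(A)-selected libraries of sorted PCs. Per the labels and the submitters' processing notes, quality was checked with FastQC 0.12.0, reads were aligned to mm39 with STAR 2.7.10a, and DESeq2 was used. The program that counted the reads, its annotation and its treatment of reads that match several genes are not given in the sources used here. All 8 libraries were assigned to water (n = 4) or zinc (n = 4) from the labels. Each library is from a single mouse.

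Identifiers were matched to GENCODE M39 (54749 of 55414, the rest holding 0.00443% of counts), from which gene structures, sequences and GRCm39 positions were taken. Counts were scaled with TMM factors and filtered with filterByExpr, which kept 10707 genes and 99.89% of counts. Zinc was compared with water by the quasi-likelihood test of edgeR 4.0.16 in R 4.3.3 over all genes, with Benjamini-Hochberg adjustment at 0.05 (biological coefficient of variation 0.269). limma 3.58.1 and DESeq2 1.42.0 were alternatives, as were other scalings and filters, a replicate block and leaving out libraries. Lists were also described, after values were seen, by log2 ratios of group mean CPM (0.1 added) with single libraries left out. For log2 ratios 0.5 was added to each count, and a two-sided exact permutation test over all 70 assignments of libraries was used, whose smallest p is 0.0286. Fits that left libraries out had fewer assignments. Correlations used log2 CPM with a prior count of 2. Levels per kilobase used the union of exons. The scripts were tested on simulated data.

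The genes, lists and alternatives were chosen with earlier results of these data known. Named genes were Mptx1, Mptx2 and every pentraxin, the 4 tested members of each of 11 lists with the highest level per kilobase, the 2 genes next above and below each pentraxin in level, the 5 genes most like each pentraxin over the libraries, and tested genes within 200 kb. Names outside this rule were chosen after values were seen, and some genes that the rule names are not reported here. The depth of 10623658 to 15101627 counts gave Mptx2 counting errors far below the spread between libraries, whereas Mptx1 rested on 52 to 162 counts per library.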

Additional observations from a re-analysis of the deposited data

Results flagged for a closer look

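Milli-Q water 3 stood apart from the other 3 water libraries in its level of Mptx2, at 15458 CPM against 4758 to 5628 CPM. The gap to the nearest library was 0.919 of the range of the group, above Dixon's 95% critical value for 4 samples. This was 1 outlier in 14 groups of 4 examined, and chance gives 0.7. Mptx1, at 19.9 CPM in the same library against 4.96 to 7.66 CPM, did not pass the same limit.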

How the results depend on the processing

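Zinc stayed below water for both pentraxins in all 18 alternatives, and none passed the test. Leaving out each library gave log2 fold changes of -1.17 to -0.35 for Mptx1 and -1.0 to -0.25 for Mptx2, the values closest to 0 being those without Milli-Q water 3. With sample weights in limma they were -0.48 and -0.59, with total counts as the only scaling -0.73 and -0.60, and with DESeq2 -0.98 and -0.84. DESeq2 called 4 genes past the threshold, of 18720 with an adjusted p and 1286 with an unadjusted p under 0.05, where edgeR called 0 of 10707, and the cause was not tested. The other alternatives called 0. Without zinc 4, 1960 of 10924 genes had an unadjusted p under 0.05, against 1092 with all libraries.

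Same-numbered libraries did not deviate together (correlations -0.0275, 0.00817, 0.0249 and 0.0266, none best with its own number), so the numbers were not taken to pair the mice. With the number as a replicate block the log2 fold changes were -0.75 for Mptx1 and -0.64 for Mptx2 (adjusted p = 0.595 for both by edgeR) with 0 genes called. For the 3 log2 ratios the block was tested by flipping the signs of the 4 same-numbered differences in every way, not by the 70 assignments. This exact sign-flip test gave p-values of 0.75, 0.375 and 0.375.

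The difference in the log2 ratio of Mptx1 to Mptx2 ranged from -0.24 to 0.01 when libraries were left out, and reversed to 0.01 without Milli-Q water 1. Those of Mptx1 and Mptx2 to Lyz1 ranged from -0.87 to -0.27 and from -0.69 to -0.20, and reached the smallest possible exact permutation p, 0.0286, without Milli-Q water 4. The correlation of the pentraxins ranged from 0.367 without Milli-Q water 3 to 0.959, and was 0.931 (exact permutation p = 0.0512) without Milli-Q water 2. Outside the Defa genes the shares moved to 0.00114% for Mptx1 and 0.941% for Mptx2, because the denominator held fewer counts. Depth limits Mptx1, with 52 to 162 counts per library. It also limits the Crp, Apcs, Ptx3 and Ptx4 genes, whose lack of counts allows at most 0.179 to 0.369 CPM in each library (3 counts).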
